A study of Homo sapiens with 2 samples.

Results

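The G2/M cells of a pair of HCT116 scRNA-seq libraries, 1 mock-treated and 1 treated with decitabine (DAC), are described here. These cells were chosen by measured values, namely the UMI counts of 9 genes of G2 phase and mitosis, *TOP2A*, *CDK1*, *CCNB1*, *CCNB2*, *CENPF*, *MKI67*, *UBE2C*, *AURKA*, and *TPX2*. A cell was eligible with 10000 UMIs or more, of which 50% or less came from mitochondrial genes, and its score was the summed UMIs of the 9 genes per 10000 UMIs of the cell. Eligible cells with a score above the 75th percentile over both libraries were taken as G2/M cells, and there were 605 of them among 2418 eligible cells and 3534 deposited cells. A UMI (unique molecular identifier) tags a transcript molecule, so that PCR copies of it are counted once.

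HCT116 cells are an epithelial line from a human colon cancer, and DAC is a cytidine analog that traps DNA methyltransferases on DNA. The DAC-treated HCT116 cells were dosed on day 1 and again on day 3 (0.5 μM each time) and given fresh medium on day 5, whereas the mock-treated HCT116 cells received no DAC. Both were collected on day 7, and 1 single-cell library was prepared from the 3′ ends of transcripts for each treatment. Cells of 1 library are not replicates, so no test was made between the treatments, a difference between the libraries cannot be told apart from one between the treatments, and all intervals (95%) cover counting error only.

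Cells in G2 phase have copied their DNA, and those in M phase condense and separate it. Entry into mitosis is driven by CDK1 bound to cyclin A or cyclin B, and exit by the anaphase-promoting complex (APC/C), which marks cyclins and the separase inhibitor securin for destruction. Transcripts of many of these genes accumulate from late S phase, peak around mitosis, and are repressed in G1 phase and in resting cells. In their promoters, a cell cycle genes homology region (CHR, searched here only as the letters TTTGAA), often near CCAAT boxes, is a known site of this repression.

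As examples from the 9 genes, the 250 bases before the transcription start are printed for the genes of the B-type cyclins and topoisomerase IIα, 5′ to 3′ on the strand of the gene. Capitals mark CCAAT and TTTGAA on either strand (ATTGG and TTCAAA on the other strand), and these letters did not overlap in the sequences shown. The windows were taken from RefSeq on GRCh38.p14, at chr5:69166900-69167149 (plus strand) for *CCNB1*, at chr15:59104896-59105145 (plus strand) for *CCNB2*, and at chr17:40417897-40418146 (minus strand) for *TOP2A*.
CCNB1: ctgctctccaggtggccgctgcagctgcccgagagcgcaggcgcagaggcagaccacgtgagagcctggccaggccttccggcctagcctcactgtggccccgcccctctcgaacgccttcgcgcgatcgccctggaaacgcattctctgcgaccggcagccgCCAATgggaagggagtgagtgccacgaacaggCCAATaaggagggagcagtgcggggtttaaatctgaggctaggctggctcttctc
CCNB2: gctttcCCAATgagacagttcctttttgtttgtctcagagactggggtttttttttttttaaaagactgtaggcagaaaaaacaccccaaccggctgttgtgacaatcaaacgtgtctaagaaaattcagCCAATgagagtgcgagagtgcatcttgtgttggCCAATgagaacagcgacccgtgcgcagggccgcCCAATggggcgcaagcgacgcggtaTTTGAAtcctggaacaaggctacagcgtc
TOP2A: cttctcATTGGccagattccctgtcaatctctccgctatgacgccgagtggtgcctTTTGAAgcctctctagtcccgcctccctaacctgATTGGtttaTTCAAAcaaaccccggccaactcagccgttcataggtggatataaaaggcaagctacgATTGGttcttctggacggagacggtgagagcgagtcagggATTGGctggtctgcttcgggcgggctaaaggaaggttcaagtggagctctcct
*CCNB1* had 2 CCAAT boxes and no TTTGAA in this window, *CCNB2* had 4 CCAAT boxes and 1 TTTGAA 29 bases before the start, and *TOP2A* had 4 CCAAT boxes and 2 TTTGAA. Windows of 300 bases, from 250 bases before to 50 bases after the start and 1 for each gene (the first listed), were at hand for 6 of the 9 genes, and not for *UBE2C*, *AURKA*, and *TPX2*. TTTGAA was found on either strand in 5 of the 6 windows and CCAAT in all 6, against 15.4% and 35.7% of 27305 such windows of all genes. Among the other G2/M genes listed below, windows were matched for 111 of 127 genes, of which 49.5% held TTTGAA and 59.5% held CCAAT. For 26 matched genes of S phase the shares were 7.69% and 69.2%. A match is only a description of the letters in the window, and a window without TTTGAA may hold a CHR of other letters, which was not searched.

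The mock-treated library contributed 162 G2/M cells, 12.5% of its 1298 eligible cells (95% confidence interval 10.7 to 14.4%). The DAC-treated library contributed 443 G2/M cells, 39.6% of its 1120 eligible cells (36.7 to 42.5%). The share was thus 27.1 percentage points, or 3.17-fold, higher in the DAC-treated library, and 73.2% of all the G2/M cells came from it. Since the threshold fixes the share over both libraries, only its division between them was free to vary. The threshold lay at 20.2 UMIs of the 9 genes per 10000 UMIs. The nearest cell above it, a DAC-treated cell, had a score of 20.214, and the nearest below it, a mock-treated cell, had 20.204. Within 10% of the threshold on either side were 2.85% of the mock-treated and 9.11% of the DAC-treated eligible cells, so that more DAC-treated cells would change side with a small move of the threshold.

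**Figure D1:**
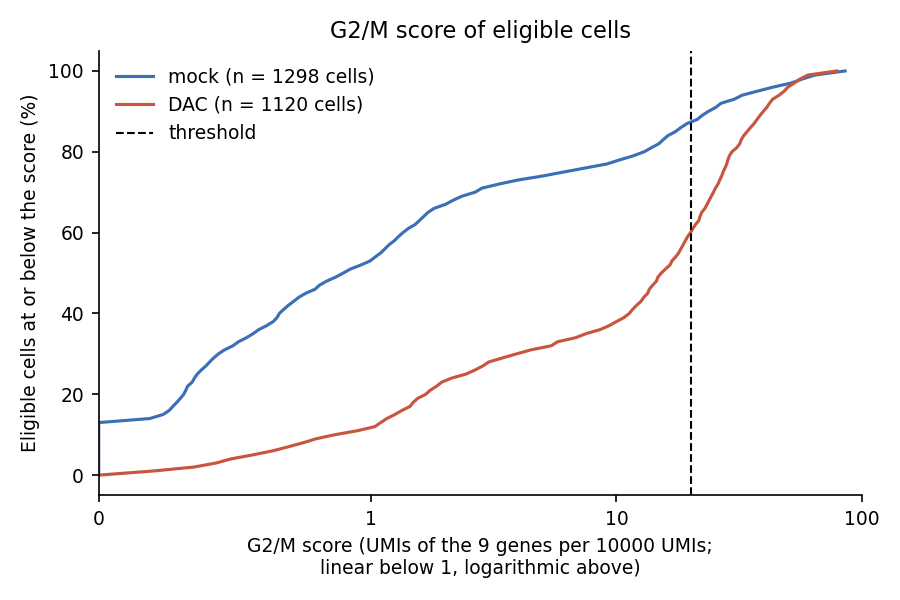
G2/M score of the eligible cells, as the percentage of cells (vertical axis) at or below each score (horizontal axis, UMIs of the 9 genes per 10000 UMIs, linear below 1 and logarithmic above) for the 1298 mock-treated (blue) and 1120 DAC-treated cells (red). The dashed line marks the threshold, above which lay 12.5% of the mock-treated and 39.6% of the DAC-treated cells.

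The libraries differed in the lower and middle range of the score and met at its upper end. Its median over eligible cells was 0.897 in the mock-treated library and 15.2 in the DAC-treated library. A score under 1 was found in 53.2% of mock-treated (50.5 to 56.0%) and 11.6% of DAC-treated eligible cells (9.79 to 13.6%), as shown in the plot of the score. Above the threshold, where the rule itself sets the lower end, the scores were similar. Mock-treated G2/M cells had a median of 32.1, with quartiles of 24.99 and 50.1, and DAC-treated G2/M cells had a median of 29.6, with quartiles of 25.1 and 39.9. The highest scores were 85.5 and 79.1. Below the threshold, the medians were 0.730 in mock-treated and 3.99 in DAC-treated cells, so that the cells with which G2/M cells are compared were not alike in the libraries. All 9 genes were detected in 81.5% of the mock-treated and 89.8% of the DAC-treated G2/M cells, and 14.5% and 52.1% of all the eligible cells.

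The label was checked against the 5 markers *TOP2A*, *CDK1*, *CCNB1*, *CENPF*, and *MKI67*, all of which the rule used, and against genes that it did not use. Of 127 other G2/M genes, 96 were 2-fold or more higher in G2/M cells than in other eligible cells of the mock-treated library, and none was 2-fold lower. Over all the 12504 genes with 50 UMIs or more there, 4.61% were 2-fold or more higher and 3.22% were lower. In the DAC-treated library, 78 of the 127 genes were 2-fold or more higher and none lower, against 1.59% higher and 2.83% lower of 13800 genes. These are descriptions of a chosen group of cells. When the 127 genes formed the score in place of the 9, the numbers of cells chosen were again 162 and 443, and 88.9% and 86.7% of the original G2/M cells were among them. All 8 epithelial markers had UMIs in the G2/M cells of both libraries, and together held 36699 UMIs in mock-treated and 178947 UMIs in DAC-treated cells. Of 11 markers of immune, fibroblast, and endothelial cells, 8 were at 0 in mock-treated G2/M cells, with 119 UMIs in all, and *CDH5* was at 0 in DAC-treated G2/M cells, with 652 UMIs in all, mostly of *COL1A1* and *CD68*.

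G2/M cells had more UMIs than other cells in the mock-treated library, whereas in the DAC-treated library the medians were closer. The median was 44582 UMIs in mock-treated G2/M cells and 31464.5 in the other mock-treated cells, a ratio of 1.42. It was 49776 in DAC-treated G2/M cells and 45325 in the other DAC-treated cells, a ratio of 1.10. Between treatments, the median was 1.12-fold higher with DAC in G2/M cells and 1.44-fold higher in the others. After 10000 UMIs were drawn from each cell, a median of 3023 genes was detected in mock-treated and 3089 in DAC-treated G2/M cells, against 2742 and 3013 in the other cells. Mitochondrial genes held a median of 14.4% and 15.8% of the UMIs of mock- and DAC-treated G2/M cells, and 17.5% and 20.1% of those of the other cells, and the part of this difference in the comparisons below was not tested. With members chosen again among the cells drawn to 10000 UMIs, the shares of G2/M cells were 12.7% and 38.5%. Doublets of 1 cell line carry no marker and were not called, and their part in the scores was not tested. When the deepest 5% of eligible cells were left out of each library, the shares were 11.8% and 40.2%. The libraries shared 12 barcodes, of which none was eligible in both and 5 marked G2/M cells.

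The score drew on all 9 genes in both libraries, with *CENPF* and *MKI67* holding the most of its UMIs. *CENPF*, a kinetochore protein (chromosome 1 of hg38, 214603185 to 214664574), gave 20.1% of the score's UMIs in mock-treated and 18.8% in DAC-treated G2/M cells, and *MKI67*, which coats mitotic chromosomes (chromosome 10, 128096659 to 128126423), gave 18.8% and 20.6%. Levels are given from here on as CPM, the UMIs of a gene summed over the G2/M cells of a library scaled to a total of 1000000 for these cells. For *CENPF*, the level was 801 CPM in mock-treated and 639 CPM in DAC-treated G2/M cells. It was 55.7 and 109 CPM in the other cells, so that the step between the groups was 14.4-fold in the mock-treated and 5.84-fold in the DAC-treated library.

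*CCNB2*, which encodes cyclin B2 (chromosome 15 of hg38, 59105126 to 59125045), was the gene of the score that differed most between treatments. It had 1889 UMIs, or 254 CPM, in mock-treated and 2746 UMIs, or 122 CPM, in DAC-treated G2/M cells, which was 2.09-fold lower with DAC (log2 ratio -1.06, 95% confidence interval -1.15 to -0.98). In the other cells it was at 26.5 and 26.7 CPM. Single G2/M cells overlapped widely in this gene, with a median of 2.27 UMIs per 10000 and a highest value of 14.2 in mock-treated cells, and 1.03 and 5.65 in DAC-treated cells. *CCNB1*, which encodes cyclin B1 (chromosome 5, 69167135 to 69178245), was at 468 CPM in mock-treated and 399 CPM in DAC-treated G2/M cells (log2 ratio -0.23). The kinase gene *CDK1* (chromosome 10, 60778331 to 60794852) was at 238 and 179 CPM (log2 ratio -0.41).

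The remaining genes of the score were each within 2-fold between treatments. *TPX2*, which activates Aurora A on the spindle (chromosome 20, 31739271 to 31801805), was at 460 CPM in mock-treated and 380 CPM in DAC-treated G2/M cells. *UBE2C*, the ubiquitin-conjugating enzyme of the APC/C (chromosome 20, 45812576 to 45816957), was at 572 and 534 CPM, and *TOP2A*, which untangles sister chromatids (chromosome 17, 40388525 to 40417896), was at 291 and 276 CPM. *AURKA*, the kinase Aurora A (chromosome 20, 56369389 to 56392337), was at 157 and 166 CPM, with a log2 ratio of 0.07 whose interval of -0.02 to 0.17 includes 0. In the other cells, however, *AURKA* was at 6.56 CPM with mock and 37.7 CPM with DAC treatment. Since the rule sets a lower limit to the summed level of the 9 genes in a cell, their levels in G2/M cells describe the choice and were not tested.

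**Figure D2:**
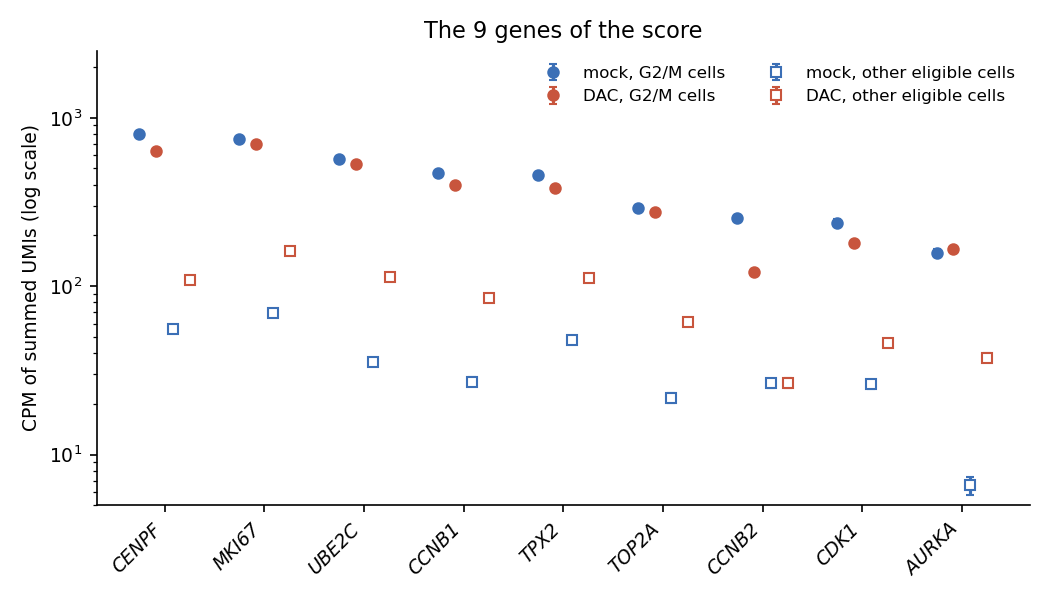
Levels of the 9 genes of the score (horizontal axis) in CPM of summed UMIs (vertical axis, logarithmic), in G2/M cells (filled circles, 162 mock and 443 DAC) and other eligible cells (open squares, 1136 mock and 677 DAC) of the mock-treated (blue) and DAC-treated (red) libraries, with exact Poisson 95% intervals. *CCNB2* shows the widest gap between treatments in G2/M cells, 254 against 122 CPM, and the open red squares lie above the open blue ones for the other 8 genes.

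DAC- and mock-treated G2/M cells were then compared over all genes. Of 12196 genes with 50 UMIs or more over the G2/M cells of both libraries, 12.8% were 2-fold or more higher and 7.41% were 2-fold or more lower in DAC-treated cells, and the median log2 ratio was 0.09. In the other eligible cells, 18.3% of 14118 genes were higher and 6.7% were lower, with a median of 0.27. These shares of higher genes include 253 genes in G2/M cells and 279 in the others that had 0 UMIs with mock treatment. Such genes passed the filter only through the DAC-treated library and had to come out higher. Each ratio below is a log2 ratio of CPM, DAC-treated over mock-treated, and beside the median of a list its median in other eligible cells, which share the libraries but not the cells, is given too.

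Genes of the G2/M machinery outside the score were at nearly the same level in G2/M cells of both treatments. Of the 127 genes, 1 was 2-fold or more higher and 2 were 2-fold or more lower in DAC-treated G2/M cells, and the median log2 ratio was -0.15. In the other eligible cells, 59 of them were 2-fold or more higher with DAC, none was lower, and the median was 0.93. Because the threshold set the same lowest score in both libraries, near-equal levels of genes that accumulate together with the score were partly fixed by the choice. When each library was cut at its own 75th percentile instead, which took 325 mock-treated and 280 DAC-treated cells, the median was 0.27. The 3 genes past 2-fold, named after their values were seen, were *CDC25A*, a phosphatase that activates CDKs (7.39 to 25.9 CPM), *BORA*, an activator of Aurora A and PLK1 (52.5 to 20.7 CPM), and the spindle motor gene *KIF15* (55.2 to 18.2 CPM).

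Among 18 genes of the cyclin and kinase engine, the median log2 ratio was -0.06, and 1.21 in the other cells. *PLK1*, the polo-like kinase of mitotic entry, was at 218 CPM in mock-treated and 180 CPM in DAC-treated G2/M cells, and *CCNA2*, which encodes cyclin A2, at 131 and 129 CPM. The CDK subunit genes *CKS1B* and *CKS2* were at 468 and 455 CPM with mock and 362 and 426 CPM with DAC treatment. Thus these were within 1.5-fold in G2/M cells. In the other cells, *PLK1* was at 10.0 and 36.1 CPM, *CCNA2* at 8.60 and 31.5 CPM, and *CKS2* at 70.3 and 198 CPM. *CKS1B* was lower with DAC there too, at 193 and 156 CPM.

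Kinetochore and spindle genes were nearly all within 2-fold. None of 21 kinetochore genes was past 2-fold, with a median log2 ratio of -0.25, and 0.92 in the other cells. *NDC80*, whose product binds microtubules, was at 152 CPM in mock-treated and 84.7 CPM in DAC-treated G2/M cells (log2 ratio -0.85, -0.95 to -0.74). *CENPE*, a motor that moves chromosomes to the spindle equator, was at 183 and 120 CPM, and *CENPA*, the histone that marks centromeres, at 133 and 78.4 CPM. The microtubule-linking gene *SKA2* went the other way, with 97.9 and 131 CPM. Of 23 spindle genes, 1 was past 2-fold, and the median log2 ratio of -0.36 was the lowest of the lists of the G2/M machinery, against 1.17 in the other cells. *HMMR*, a spindle assembly factor, was at 289 CPM in mock-treated and 172 CPM in DAC-treated G2/M cells (log2 ratio -0.75, -0.83 to -0.67), *ASPM*, which focuses spindle poles, at 200 and 141 CPM, and *NUSAP1*, which bundles microtubules, at 297 and 238 CPM. In the other cells, *HMMR* was higher with DAC, at 14.4 and 37.6 CPM.

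Spindle checkpoint, passenger, condensin, and cohesion genes stayed within 2-fold without exception. The median log2 ratios were -0.09 over 10 checkpoint genes, 0.01 over 4 genes of the chromosomal passenger complex, -0.09 over 8 condensin genes, and -0.03 over 13 cohesion genes. They were 1.07, 1.37, 1.00, and 0.42 in the other cells, in the same order. The checkpoint gene *BUB1* was at 78.6 CPM in mock-treated and 71.3 CPM in DAC-treated G2/M cells, and *MAD2L1* at 175 and 168 CPM. *ZWINT*, which links the checkpoint to the kinetochore, had the highest ratio of its list, with 67.8 and 126 CPM (log2 ratio 0.89, 0.75 to 1.03). Of the passenger complex, *AURKB*, the kinase Aurora B, was at 168 and 130 CPM and *BIRC5*, which encodes survivin, at 375 and 304 CPM. *SMC4* of condensin was at 303 and 292 CPM, and *PTTG1*, which encodes securin, at 433 and 333 CPM.

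For mitotic exit, 18 APC/C genes had a median log2 ratio of 0.09 and 12 cytokinesis genes one of -0.24, with none past 2-fold. The medians were 0.38 and 1.03 in the other cells. *UBE2S*, which extends ubiquitin chains with the APC/C, was at 1856 CPM in mock-treated and 1864 CPM in DAC-treated G2/M cells. *CDC20*, its activator, was at 304 and 334 CPM, whereas in the other cells it was at 22.5 and 109 CPM. The midbody gene *CEP55* was at 152 and 162 CPM in G2/M cells, and *ANLN*, which organizes the contractile ring, at 86.2 and 98.6 CPM.

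**Figure D3:**
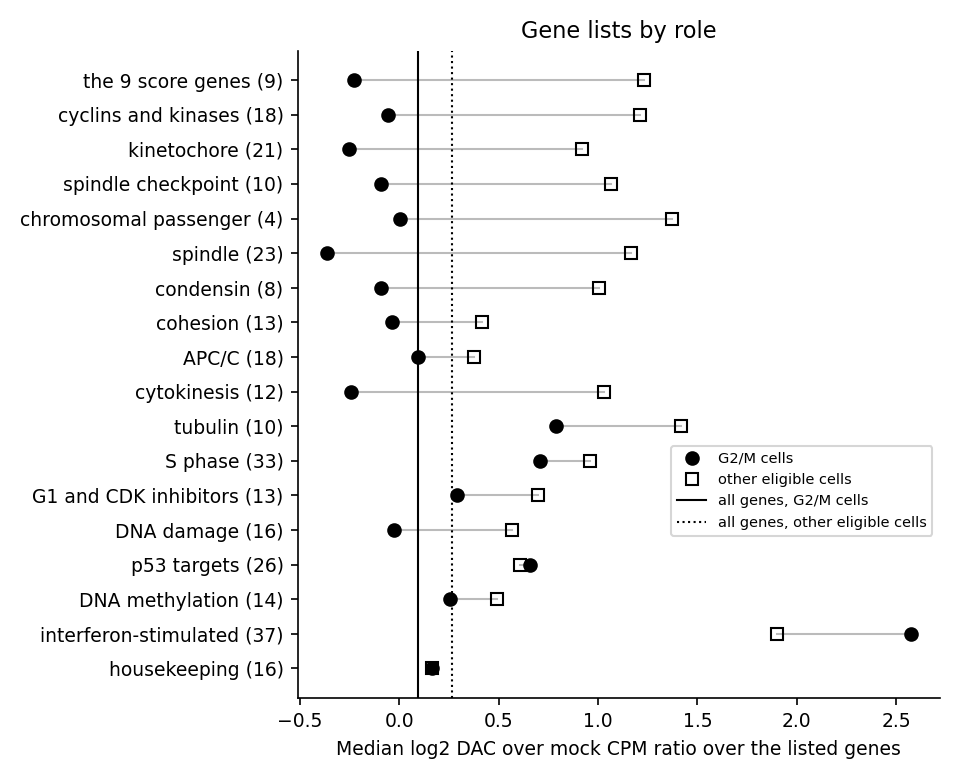
Median log2 DAC over mock CPM ratio (horizontal axis) of each gene list (vertical axis, with the number of genes measured in G2/M cells) in G2/M cells (filled circles) and other eligible cells (open squares). The solid and dotted lines mark the medians over all genes, 0.09 and 0.27, and the lists of the G2/M machinery lie at or to the left of the solid line in G2/M cells, from -0.36 to 0.09.

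The position of G2/M cells between G2 phase and mitosis was described by the ratio of the UMIs of 14 mitosis genes to those of 13 G2 genes, none of which was used in the score. This ratio was 1.10 in mock-treated and 1.18 in DAC-treated G2/M cells, a difference of 0.10 on the log2 scale (0.07 to 0.13). This difference of the summed UMIs rested on *HMGB2*, a chromatin protein gene with 32.0% and 26.5% of the UMIs of the G2 genes. Without *HMGB2*, the ratios of the sums were 1.61 and 1.60 and the difference was -0.00934 (-0.0452 to 0.0265), but the shares of single cells given next still differed. UMIs of the mitosis genes exceeded those of the G2 genes in 90 mock-treated G2/M cells (55.6%, 47.6 to 63.4%) and 305 DAC-treated G2/M cells (68.8%, 64.3 to 73.1%), and without *HMGB2* in 74.1% and 90.1% of them. Single cells ranged widely in both, with log2 ratios (1 UMI added) from -1.92 to 1.23 in mock-treated and from -1.38 to 1.39 in DAC-treated cells. The summed difference also depended on the threshold and, with all G2 genes, was -0.0928 with the 90th percentile, which left 73 mock-treated and 169 DAC-treated cells.

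The 10 genes outside the score that were highest in G2/M cells over other cells in both libraries were *NEK2*, *GAS2L3*, *KIF20A*, *CENPE*, *CENPA*, *CDCA3*, *PLK1*, *BORA*, *ASPM*, and *PSRC1*. They were ranked by the lower of the ratios of both libraries among 4549 genes. *KIF20A*, a kinesin of cytokinesis, was 25.3-fold higher in G2/M cells than in other cells of the mock-treated library and 5.67-fold higher in the DAC-treated library, and the centrosomal kinase gene *NEK2* was 19.7- and 6.06-fold higher. In all 10 genes the step was smaller in the DAC-treated library. The levels of the other cells bear on this, as *NEK2* was at 5.19 CPM in mock-treated and 10.5 CPM in DAC-treated other cells, and *KIF20A* at 1.71 and 8.10 CPM. In G2/M cells, *NEK2* was at 102 and 63.7 CPM and *KIF20A* at 43.4 and 45.9 CPM.

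Of 10 measured tubulin genes, which encode the subunits of microtubules and are listed here with stathmin, 3 were 2-fold or more higher in DAC-treated G2/M cells and 7 were within 2-fold, with a median log2 ratio of 0.79. Of the 3, *TUBB2B* passed the filter only through the DAC-treated library and had to come out higher. The median in the other cells was higher still, at 1.42. *TUBB* was at 560 CPM in mock-treated and 1001 CPM in DAC-treated G2/M cells (log2 ratio 0.84, 0.79 to 0.89), *TUBB4B* at 682 and 1142 CPM, and *TUBA1B* at 1409 and 1833 CPM. *TUBB2B* had 0 UMIs in mock-treated and 386 UMIs in DAC-treated G2/M cells, at least 42.4-fold higher against 3 counts, the limit that a count of 0 allows over a library's G2/M cells. *TUBA3D*, which was in no list and is known as an α-tubulin of the testis, was among the 10 genes with the highest ratios, with 2 UMIs in mock-treated and 1734 UMIs in DAC-treated G2/M cells (286-fold, 79.0 to 2362). In the DAC-treated library it was 2.45-fold higher in G2/M cells than in the others. This was shared with cells high in S-phase genes alone, which had 60.3 CPM, against 60.5 CPM in cells high in the G2/M score alone, 90.8 CPM in cells high in both, and 17.5 CPM in cells high in neither. Copies of this gene are nearly identical, so its reads may have been split among them by the counting.

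Of 33 S-phase genes, most of which serve DNA replication, 11 were 2-fold or more higher in DAC-treated G2/M cells, 22 were within 2-fold, and none was 2-fold lower. The median log2 ratio was 0.71 in G2/M cells, 0.96 in the other cells, and 0.24 in G2/M cells cut at the 75th percentile of each library. *PCNA*, the sliding clamp of DNA polymerases, was at 76.4 CPM in mock-treated and 250.01 CPM in DAC-treated G2/M cells (log2 ratio 1.71, 1.58 to 1.84), and at 60.9 and 153 CPM in the others. *RRM2*, the small subunit of ribonucleotide reductase, was at 138 and 269 CPM (log2 ratio 0.97), and *TYMS*, thymidylate synthase, at 234 and 308 CPM. The helicase gene *MCM7* differed little, with 146 and 156 CPM, whereas *MCM4* of the same helicase was at 37.9 and 102 CPM.

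Cells were called high in S-phase genes above the 75th percentile of the summed 33 genes over all eligible cells, 26.7 UMIs per 10000. Of the G2/M cells, 31 mock-treated (19.1%, 13.4 to 26.0%) and 252 DAC-treated cells (56.9%, 52.1 to 61.5%) were high in S-phase genes. Among the other eligible cells, 8.80% of mock-treated and 32.8% of DAC-treated cells were so, and among all eligible cells 10.1% and 42.3%, so that cells high in S-phase genes were more frequent with DAC outside G2/M cells too. The label G2/M is incomplete for the DAC-treated cells, of which the larger part carried both sets of transcripts. Cells high in the G2/M score alone made up 10.1% of mock-treated and 17.1% of DAC-treated eligible cells, and cells high in neither made up 79.8% and 40.6%. In the 131 mock-treated and 191 DAC-treated G2/M cells that were not high in S-phase genes, *PCNA* was still at 46.4 and 165 CPM, and *CCNB2* at 292 and 130 CPM.

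The overlap with S-phase genes ran differently along the score. G2/M cells were divided by score into tertiles at 26.6 and 37.3 UMIs per 10000. In mock-treated cells, 45.6% of the 57 cells of the lower tertile, 7.69% of the 39 cells of the middle, and 3.03% of the 66 cells of the upper were high in S-phase genes. In DAC-treated cells, the shares were 63.4% of 145, 59.9% of 162, and 46.3% of 136 cells. *PCNA* was at 132, 70.2, and 39.5 CPM from the lower to the upper tertile of mock-treated cells, and at 244, 259.8, and 245 CPM in DAC-treated cells, where it was nearly level. *CCNB2* is part of the score, so that its step from tertile to tertile is built in, and only its level between treatments can be read, at 142, 230.0, and 348 CPM in mock-treated and 86.9, 107, and 171 CPM in DAC-treated cells. *CDC20* was at 155 CPM in mock-treated and 268 CPM in DAC-treated cells of the lower tertile and at 460 and 409 CPM in the upper one. The ratio of mitosis to G2 genes, *HMGB2* included, was 0.754, 0.961, and 1.31 from the lower to the upper tertile of mock-treated cells. In DAC-treated cells this ratio was 1.13, 1.16, and 1.22, so that it was above mock in the lower and middle tertiles and below it in the upper one.

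**Figure D4:**
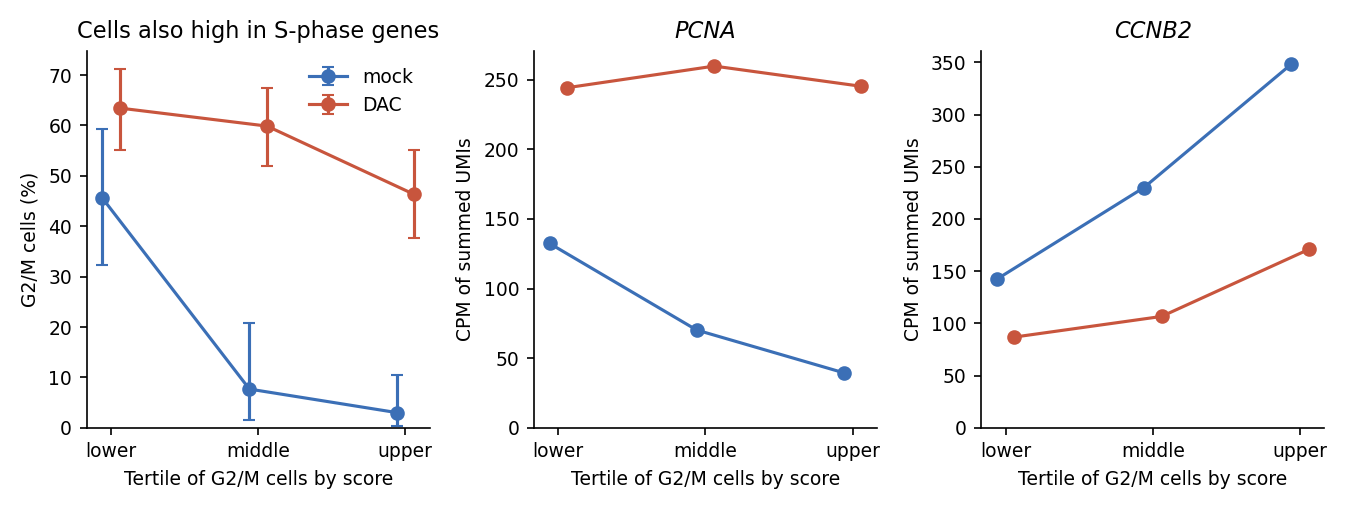
G2/M cells by tertile of the score (horizontal axis), for mock-treated (blue, 57, 39, and 66 cells) and DAC-treated cells (red, 145, 162, and 136 cells), with the percentage of cells also high in S-phase genes and its exact binomial 95% interval (left), and the CPM of summed UMIs of *PCNA* (middle) and *CCNB2* (right). In the upper tertile, 3.03% of mock-treated and 46.3% of DAC-treated cells were also high in S-phase genes, and *PCNA* was at 39.5 and 245 CPM. *CCNB2* is part of the score that defines the tertiles.

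Cyclin D and CDK inhibitor genes, which act in G1 phase, were measured for 13 of 14 listed genes, with 4 that were 2-fold or more higher and 2 lower in DAC-treated G2/M cells and a median log2 ratio of 0.29, and 0.70 in the other cells. *CCND1*, which encodes cyclin D1, was at 536 CPM in mock-treated and 1171 CPM in DAC-treated G2/M cells, a 2.18-fold difference (2.11 to 2.26). *CDKN1A*, which encodes the CDK inhibitor p21, was at 90.4 and 162 CPM in G2/M cells and at 116 and 248 CPM in the others. In the DAC-treated library, cells high in S-phase genes alone (168 CPM) were close to cells high in the G2/M score alone (158 CPM), and cells high in neither were at 286 CPM. In the mock-treated library, cells high in S-phase genes alone were the highest, at 161 CPM, and cells high in neither were at 111 CPM. Mock-treated G2/M cells also high in S-phase genes were at 141 CPM and the other mock-treated G2/M cells at 79.1 CPM. *CDKN2D*, an inhibitor of CDK4 and CDK6, was at 37.9 and 96.3 CPM. *CDKN2A*, which encodes p16 and ARF, was lower with DAC, at 181 and 87.9 CPM in G2/M cells (log2 ratio -1.04, -1.14 to -0.94) and 112 and 86.9 CPM in the others. The 3′ counts do not separate its transcripts.

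Targets of p53 went in both directions. Of 26 measured of 27 listed genes, 6 were 2-fold or more higher and 4 were 2-fold or more lower in DAC-treated G2/M cells, with a median log2 ratio of 0.66, and 0.61 in the others. Summed over the list, however, the level was not higher with DAC in G2/M cells, at 2050 CPM with mock and 1914 CPM with DAC treatment. The sums were 2228 and 2407 CPM in the others. *SFN*, the 14-3-3σ protein that retains CDK1 in the cytoplasm, was at 146 CPM in mock-treated and 303 CPM in DAC-treated G2/M cells, and *RPS27L* at 183 and 336 CPM. *GDF15*, a secreted stress protein, was at 614 and 143 CPM (log2 ratio -2.10, -2.17 to -2.03), and the 3 further genes past 2-fold on this side were *GADD45A*, *SESN2*, and *TNFRSF10B*. Targets of p53 on either side can also respond to other stresses, and the cause of these differences was not tested. DNA damage genes had a median log2 ratio of -0.02 over 16 of 17 listed genes, and 0.57 in the other cells. Of the 16 genes, 2 were 2-fold or more higher and 0 were lower. Of these 2, *CHFR*, described below, passed the filter only through the DAC-treated library and had to come out higher. *H2AFX*, whose histone is phosphorylated at DNA breaks, was at 257 and 227 CPM, and *BRCA1* at 79.7 and 59.7 CPM.

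*CHFR*, a checkpoint ubiquitin ligase that delays entry into mitosis under stress, had 0 UMIs in mock-treated and 65 UMIs in DAC-treated G2/M cells, at least 7.14-fold higher. At most 3 UMIs of it were found in a G2/M cell. In the other cells, *CHFR* had 3 UMIs in the mock-treated library and 154 UMIs in the DAC-treated library, where its level in G2/M cells was 0.596 of that in the others. The other genes named by the study were also sparse. Mock-treated G2/M cells had 0 UMIs of *SFRP1*, which encodes an inhibitor of Wnt signaling, and of *FBLN2* and *ICAM4*, and DAC-treated G2/M cells had 221, 116, and 68 UMIs, at least 24.3-, 12.7-, and 7.47-fold higher. *IFI44* had 1 and 128 UMIs and *ERVMER61-1* had 1 and 62 UMIs. *IFI16*, with 0 and 2 UMIs, and *ERVW-1*, with 0 and 4 UMIs, could not be compared at this depth.

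Genes of DNA methylation had a median log2 ratio of 0.26 over 14 genes, of which 3 were 2-fold or more higher, and the median was 0.49 in the other cells. *DNMT1*, the maintenance methyltransferase that DAC traps, was at 228 CPM in mock-treated and 298 CPM in DAC-treated G2/M cells (log2 ratio 0.38, 0.31 to 0.46), and *UHRF1*, which guides it to newly copied DNA, at 30.5 and 65.9 CPM. In both libraries *DNMT1* was higher in G2/M cells than in the others, 2.35-fold with mock and 1.72-fold with DAC treatment.

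Germline and other genes with almost no UMI in mock-treated cells were present in DAC-treated G2/M cells. Cancer-testis genes, which are normally restricted to germ cells, together were at 152 CPM in mock-treated and 1068 CPM in DAC-treated G2/M cells. Of the 42 listed genes, 14 had under 50 UMIs, and 21 passed only through the DAC-treated library, with 0 UMIs in mock-treated G2/M cells. Such genes had to come out past 2-fold, so that a count past 2-fold or a median between treatments would reflect the filter. *MAGEA4* had 0 UMIs in mock-treated and 2458 UMIs in DAC-treated G2/M cells, at least 270-fold higher, and *LY6K*, which has a role in sperm, had 4 and 2705 UMIs (log2 ratio 7.80, 6.44 to 9.68). *MAGEB2* was expressed in both, at 76.3 and 118 CPM, and so was *MAGEA3*, at 63.0 and 95.03 CPM, though its reads cannot be told apart well from those of its near-identical copy *MAGEA6*. Of 23 genes of meiosis, 12 were measured, of which 4 had 0 UMIs in mock-treated G2/M cells and 7 had more than 3. Those with 3 or fewer passed only through the DAC-treated library. The list together was at 94.98 CPM in mock-treated and 181 CPM in DAC-treated G2/M cells. Among them, *SYCP3* of the synaptonemal complex had 4 UMIs in mock-treated and 722 UMIs in DAC-treated G2/M cells, whereas *MND1*, already expressed in mock-treated cells, was at 52.8 and 63.5 CPM.

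Within the DAC-treated library, a part of these genes was lower in G2/M cells than in the others. Cancer-testis genes together held 0.107% of the UMIs of DAC-treated G2/M cells and 0.163% of those of the other DAC-treated cells, and 12 of 33 measured genes were 2-fold or more lower and none was higher, against 2.83% lower and 1.59% higher of all genes in this comparison. Cells high in S-phase genes alone lay between, with 1321 CPM for the list, against 1779 CPM in cells high in neither, 1183 CPM in cells high in the G2/M score alone, and 969 CPM in cells high in both. The lowest levels relative to the other cells among 10 abundant genes held at 2 UMIs or fewer by every mock-treated cell were those of *KRTAP3-1*, a keratin-associated protein gene (0.338-fold), *VCX3A* (0.395-fold), and *VCX3B* (0.422-fold), although reads of the last pair of paralogs may have been split. In cells high in S-phase genes alone, *KRTAP3-1* was at 131 CPM, between 201 CPM in cells high in neither and 68.1 CPM in cells high in the G2/M score alone. *VCX3B* was at 120, 215, and 100.8 CPM in the same groups. *MEG3*, an imprinted non-coding RNA, was at 122 CPM in G2/M cells and 202 CPM in the others (0.602-fold), but cells high in S-phase genes alone had 127 CPM and those high in neither 238 CPM. *SAP25*, a subunit of a histone deacetylase complex, went the other way, with 154 and 120 CPM (1.28-fold) and 157 CPM in cells high in S-phase genes alone, as did *UCHL1*, a ubiquitin hydrolase, with 115 and 94.4 CPM (1.22-fold). The 14099 detected genes that no mock-treated cell held at more than 2 UMIs together took up 1.08% of the UMIs of DAC-treated G2/M cells and 1.34% of those of the other DAC-treated cells. Their share in the mock-treated library is limited by this choice and is not compared.

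Interferon-stimulated genes were higher in DAC-treated G2/M cells for 29 of 37 measured genes, counted at 2-fold or more, with none lower and a median log2 ratio of 2.57. Of these 37 genes, 2 had 0 UMIs in mock-treated G2/M cells and 31 had more than 3. Those with 3 or fewer passed the filter only through the DAC-treated library and had to come out higher. In the other cells the median was 1.90. *ISG15*, a ubiquitin-like modifier, was at 149 CPM in mock-treated and 1239 CPM in DAC-treated G2/M cells (log2 ratio 3.06, 2.97 to 3.14). *IFI27*, which responds strongly to type I interferon, had 18 and 18423 UMIs (337-fold, 213 to 569), and *IFI6* was at 20.6 and 488 CPM. *IFITM3*, which blocks the entry of viruses, was at 143 and 384 CPM in G2/M cells, but at 375 and 379 CPM in the others. Mock-treated G2/M cells thus had 0.382 of the *IFITM3* level of other mock-treated cells, and DAC-treated cells had a like level in both groups. *IFITM2* gave a like pattern, with 54.3 and 86.3 CPM in G2/M cells and 128 and 90.9 CPM in the others. Together, the 44 listed genes held 0.0696% of the UMIs of mock-treated G2/M cells and 0.117% of those of other mock-treated cells, and 0.404% and 0.446% with DAC treatment. Lower levels were shared with cells high in S-phase genes alone, at 890 CPM against 1208 CPM in cells high in neither with mock treatment, and 3898 and 4719 CPM with DAC treatment.

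**Figure D5:**
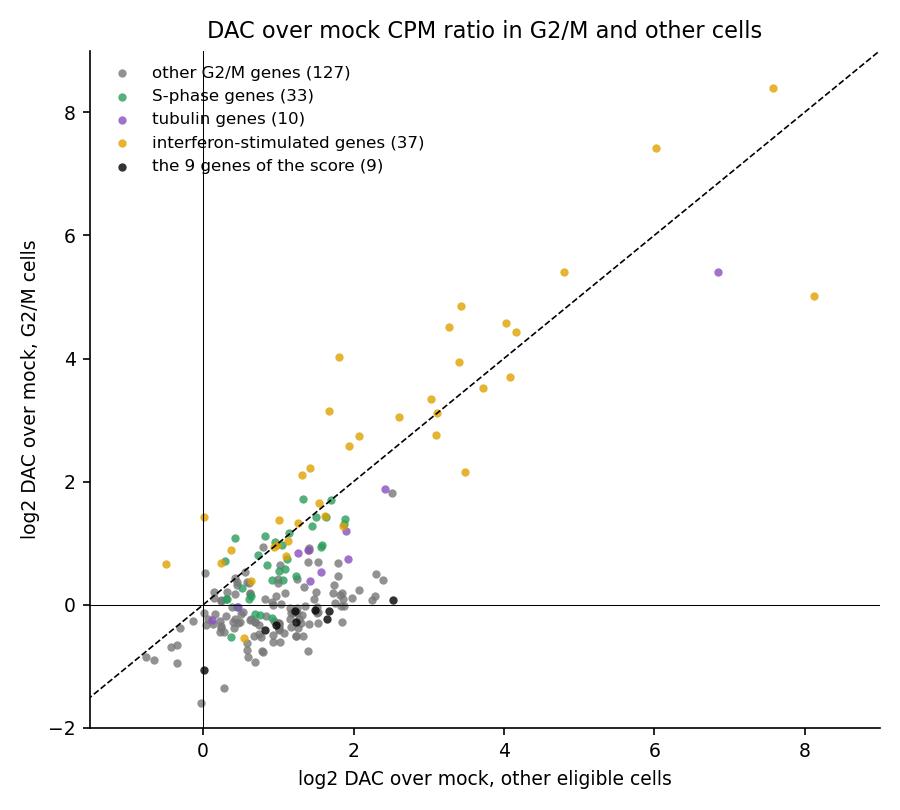
Log2 DAC over mock CPM ratio of single genes in other eligible cells (horizontal axis) and in G2/M cells (vertical axis), for 127 other G2/M genes (grey), 33 S-phase genes (green), 10 tubulin genes (purple), 37 interferon-stimulated genes (yellow), and the 9 genes of the score (black), with equality on the dashed line. Below the line lay 123 of the 127 other G2/M genes, all 9 genes of the score, all 10 tubulin genes, and 25 of the 33 S-phase genes, but 12 of the 37 interferon-stimulated genes.

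Several genes were far lower in DAC-treated G2/M cells, and those with the lowest ratios were lower in the other cells too. Among 6117 genes with 1 UMI or more per G2/M cell in the higher library, the 10 lowest were *LURAP1L*, *DDIT4*, *ADGRF1*, *DDIT3*, *FAM129A*, *TRIB3*, *ASNS*, *PCK2*, *ERRFI1*, and *FOSB*, with log2 ratios from -6.75 to -3.42 in G2/M cells and from -5.25 to -1.41 in the others. *DDIT3*, which encodes the stress transcription factor CHOP, was at 277 CPM in mock-treated and 16.5 CPM in DAC-treated G2/M cells (log2 ratio -4.07, -4.23 to -3.91). In the other cells it was at 140 and 52.7 CPM, so that G2/M cells had 1.98 times the level of other cells in the mock-treated library and 0.313 times in the DAC-treated library. *ASNS*, asparagine synthetase, was at 384 and 32.1 CPM, and *DDIT4*, an inhibitor of the growth kinase mTORC1, at 332 and 13.6 CPM. *LURAP1L* had 249 UMIs in mock-treated and 7 UMIs in DAC-treated G2/M cells (log2 ratio -6.75, -8.08 to -5.69).

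At the other end, with counts of 0 set to 3, the 10 highest ratios were those of *IFI27*, *PNMA5*, *MEG3*, *TUBA3D*, *UCHL1*, *MAGEA4*, *LY6K*, *TKTL1*, *HDGFL3*, and *VCX3B*. Counts below 3 other than 0 were used as they were, so the order and choice of these genes depend on this setting. *MEG3* and *UCHL1* had no UMI in mock-treated G2/M cells and were at least 302- and 285-fold higher with DAC, and *TKTL1*, a transketolase-like gene, was at least 194-fold higher. *DHRS2*, a dehydrogenase gene, was among the genes whose ratio differed most from that of the other cells. It was already at 26.5 CPM in mock-treated G2/M cells, 9.29 times the level of other mock-treated cells, and at 462 CPM in DAC-treated G2/M cells (log2 ratio 4.13, and 6.70 in the others). The level in mock-treated G2/M cells came from few cells, as 17 of the 162 held its 197 UMIs and 1 cell held 57.

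Housekeeping genes had a median log2 ratio of 0.16 over 16 genes in G2/M cells, and the same in the others. *GAPDH* was at 2121 CPM in mock-treated and 2419 CPM in DAC-treated G2/M cells and *RPLP0* at 3711 and 3485 CPM. *ACTB* was at 1170 and 2401 CPM and *EEF1A1*, a translation elongation factor, at 8420 and 3690 CPM, so that not every gene of this list was level between treatments. Of 8 epithelial markers, 2 were 2-fold or more higher, 2 were lower, and 4 were within 2-fold, with a median log2 ratio of -0.31, and -0.45 in the other cells. The keratin genes *KRT18* and *KRT8* were at 1989 and 887 CPM in mock-treated and at 4174 and 1889 CPM in DAC-treated G2/M cells. *KRT19* was at 1206 and 1391 CPM and *EPCAM*, an epithelial adhesion molecule, at 358 and 257 CPM.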

How the data were processed

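The files held 1 mock-treated and 1 DAC-treated library of HCT116 cells. The authors used Cell Ranger with hg38, and the deposited values were whole UMI counts of 33538 genes in each cell, not normalized. The annotation release is not given in the sources used here. Mock-treated cells numbered 1783 (49911689 UMIs) and DAC-treated cells 1751 (59046165 UMIs), more cells than the live cells that the study's methods give as input to a library. Left out were 485 mock-treated cells (395 with fewer than 10000 UMIs and 90 of the others with more than 50% mitochondrial UMIs) and 631 DAC-treated cells (458 and 173).

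The cells, gene lists, and comparisons were chosen with earlier results of these data known. Counts were summed over the G2/M cells of a library and scaled to their total, 7443733 UMIs with mock and 22583201 UMIs with DAC treatment (CPM), and genes with 50 UMIs or more over both were compared. A count of 0 was set to 3 for ratios, and no ratio was taken with 3 counts or fewer in both. Shares have Clopper-Pearson, sums Poisson, and ratios exact conditional binomial intervals (95%), and differences of log2 ratios have normal ones. With 1 library per treatment, no test was made.

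Genes were named by rule: the 9 genes of the score, up to 4 genes with the most UMIs in each list and *CHFR*, the 10 highest and 10 lowest ratios among genes with 1 UMI or more per G2/M cell in the higher library, the 5 highest and 5 lowest differences of the log2 ratio from that of other cells among 6750 genes with 100 UMIs or more in all 4 groups of cells, 8 genes that the study names, 10 abundant genes that no mock-treated cell held at more than 2 UMIs, and the 10 genes highest in G2/M over other cells among those with 200 UMIs or more in the G2/M cells of each library. Other genes named beside list counts were chosen after their values were seen. Positions are from GENCODE 44. Ratios and intervals were tested on simulated data. Other percentiles, cell and gene filters, scalings, and fold thresholds, a score of other G2/M genes, and thinning to 10000 UMIs per cell were tried as alternatives.

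Python 3.11.15, numpy 2.4.6, scipy 1.17.1, pandas 2.3.3, and matplotlib 3.10.9 were used.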

Additional observations from a re-analysis of the deposited data

Results flagged for a closer look

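For 6 named genes, the DAC to mock ratio pointed 1.5-fold or more in opposite directions in G2/M cells and other eligible cells, which was not tested because each treatment had 1 library. The log2 ratio in G2/M cells minus that in the others was -2.14 for *HMMR*, -1.70 for *NEK2*, -1.54 for *CENPA*, -1.53 for *CENPE*, and -1.44 for *NDC80*, all genes of the spindle, centrosome, or kinetochore that were lower with DAC in G2/M cells and higher in the others. *NEK2*, for example, was at 102 and 63.7 CPM in mock- and DAC-treated G2/M cells and 5.19 and 10.5 CPM in the others. The score divided the cells on genes of the same phase, and its part in these differences was not tested. For *CYP24A1*, which inactivates vitamin D, the difference was 1.501, with 21.2 and 36.5 CPM in mock- and DAC-treated G2/M cells and 56.9 and 34.6 CPM in the others.

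Among the cells left out for few UMIs or many mitochondrial UMIs, 20.8% of 631 DAC-treated cells (17.7 to 24.1%) and 5.57% of 485 mock-treated cells (3.70 to 7.997%) were above the score's threshold, a signal in cells that no comparison used. Their medians of 2496 and 6028 UMIs make the score of a cell imprecise, and the difference was not tested.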

How the results depend on the processing

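Shares, list medians, and counts were recomputed under other thresholds, cell filters, scalings, and gene filters. Of the recomputed values, 111 stayed within 1.5 times (counts) or the counting interval (others) and 25 moved further, and for single named genes 1277 ratios stayed within their counting intervals and 450 moved further. The direction changed for the log2 ratio of mitosis to G2 genes, which was -0.0928 with the 90th percentile, and the cause was not tested. It was -0.00934 without *HMGB2*, an alternative chosen after seeing the data. With that percentile the difference in shares was 9.47 points and the S-phase and p53 medians were 1.13 and 1.12. With the 50th percentile, the share differed by 43.9 points, and the S-phase and mitosis values were 0.39 and 0.26. At each library's own 75th percentile, the medians were 0.27 for other G2/M genes and 0.24 for S phase, and mitosis over G2 was 0.31. With 20% or less mitochondrial UMIs, the values were 31.8 points, 0.91 for S phase, and 0.0333 for mitosis over G2, which was 0.15 without the deepest 5% of cells. Thinned to 10000 UMIs, 918 genes were higher and 515 lower by 2-fold, against 1555 and 904. The cancer-testis median is mostly set by the 3 counts that replace 0 and says nothing of stability; it was 5.44, and 6.47 with the 50th percentile, 6.53 at each library's own percentile, and 3.88 when thinned. With 20 UMIs per gene 2365 genes were higher, and with 200 UMIs 821 were higher and 521 lower. At 1.5-fold the counts were 3014 and 2014, and at 3-fold 864 and 316. G2/M cells not high in S-phase genes, an alternative chosen after seeing the data, gave an S-phase median of 0.62. Median-of-ratios scaling lowers each log2 ratio by 0.08 in G2/M cells and 0.25 in the others. Of 50 named genes past 2-fold, 42 to 50 were still so and none changed sign (48 could be compared after thinning, of which 45 were). No paired analysis was possible because each treatment had 1 library.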
